A study of Mus musculus with 12 samples.

Results

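The genes described here are 9 that are commonly read as neuronal or glial: *Tubb3*, *Gap43*, *Stmn2*, *Stmn3*, *Nefl*, *Nefm*, *S100b*, *Sox10* and *Nes*. They were taken by symbol from a table of normalized counts that covers 35976 gene symbols, and each of the 9 had 1 RefSeq transcript entry. P3D8 and P3E3 are fibroblast lines of the adult mouse digit, each grown from a single cell, and their RNA was sequenced. Each line was measured as cartilage and as monolayer, with 3 libraries from independent cultures in each of the 4 groups and 12 libraries in all. For cartilage, suspended cells were aggregated in 50 ng/ml BMP2 and moved after 4 days to 50 ng/ml BMP9, in low serum. Monolayer controls grew on fibronectin in medium with EGF, PDGF and LIF, were collected before confluence and received neither BMP. The sample labels gave passage 6. The effects of the BMPs, of aggregation, of culture time and of leaving the growth factor medium therefore cannot be told apart. Each line is 1 clone, so that a difference between P3D8 and P3E3 is a difference between these clones.

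Neurons carry a set of cytoskeletal proteins that are rare in most other cells. *Tubb3* encodes the neuronal class of beta tubulin, *Stmn2* and *Stmn3* encode stathmins that bind tubulin dimers and destabilize microtubules, *Nefl* and *Nefm* encode neurofilament subunits, and *Gap43* encodes a membrane protein of growth cones. *S100b* encodes a calcium-binding protein of astrocytes and Schwann cells that is also a classical marker of chondrocytes. *Sox10* encodes the SoxE transcription factor of neural crest and Schwann cells, a relative of the cartilage factor Sox9, and *Nes* encodes nestin, an intermediate filament protein of neural and other progenitors. Several of these genes are thus known from cells other than neurons and glia.

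The bases before the start site are shown for *S100b* and *Nes*, which were higher in cartilage of both clones, and for *Tubb3*, which was lower in cartilage of P3D8. RefSeq's promoter table for GRCm38.p6, the assembly with mm10 coordinates, held 4 of the 9 genes. The windows are the 250 bases that end at the base before the annotated start, all on the plus strand. They lie at chr10:76253586-76253835 (*S100b*), chr3:87970843-87971092 (*Nes*) and chr8:123411303-123411552 (*Tubb3*). Capitals mark matches on either strand to ACAATG and ACAAAG (the core that Sox factors bind), GGGCGG (a GC box), CCAAT or GGCGCC (a GC-rich Smad site), letters chosen after the expression values had been seen.
S100b: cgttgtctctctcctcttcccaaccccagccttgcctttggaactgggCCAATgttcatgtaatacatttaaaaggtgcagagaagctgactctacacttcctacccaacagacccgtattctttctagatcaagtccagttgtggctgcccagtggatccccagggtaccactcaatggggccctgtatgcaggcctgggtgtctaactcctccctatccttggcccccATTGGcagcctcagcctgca
Nes: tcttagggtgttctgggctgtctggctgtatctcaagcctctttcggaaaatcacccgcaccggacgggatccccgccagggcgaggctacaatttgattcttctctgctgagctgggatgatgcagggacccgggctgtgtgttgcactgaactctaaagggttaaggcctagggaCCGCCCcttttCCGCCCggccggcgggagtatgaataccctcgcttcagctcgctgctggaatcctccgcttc
Tubb3: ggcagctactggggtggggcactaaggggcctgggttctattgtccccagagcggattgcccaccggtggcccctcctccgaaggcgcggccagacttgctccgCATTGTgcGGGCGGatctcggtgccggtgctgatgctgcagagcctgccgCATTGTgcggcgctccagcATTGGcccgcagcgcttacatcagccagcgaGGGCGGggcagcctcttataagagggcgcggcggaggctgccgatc
The *S100b* window held 2 CCAAT matches and no match to the other letters. The *Nes* window held 2 GC boxes, and the *Tubb3* window held 2 GC boxes, 2 ACAATG matches and 1 CCAAT match. Of 32536 such windows in the mouse table, 33.8% held CCAAT, 33.0% held GGGCGG, 16.5% held ACAAAG, 10.5% held ACAATG and 9.65% held GGCGCC on either strand. A match is a run of letters, not a shown binding site.

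The values are counts that the authors divided by a size factor for each library. Dividing each by the value of 1 read gave whole numbers, with totals of 7269748 to 8662298 reads per library. A count of 0 allows up to 3 reads, or 1.78 to 2.57 normalized counts, for counting error alone. Many genes with several transcript entries are counted low in this table, so a value near 0 of such a gene is not read as absence. For 4 libraries, 1 in each group (P3D8 cartilage replicate 1, P3D8 monolayer replicate 3, P3E3 cartilage replicate 1 and P3E3 monolayer replicate 3), the title and the cell line entry of the record disagree on the clone. The title was followed for grouping, and in a principal component analysis all 12 lay with their titles. Values without these 4 libraries are given beside the results. Of 10 fibroblast markers, *Col1a1* was high in monolayer, at 25410 ± 2260 normalized counts in P3D8 and 9133 ± 501 in P3E3 (SD, n = 3 each), whereas 2 others with 1 entry were near 0 there. *Lum* averaged 0.86 ± 0.98 in P3D8 monolayer and 0.20 ± 0.35 in P3E3 monolayer, and *Thy1* averaged 1.51 ± 1.52 and 1.00 ± 0.91. *Dcn* averaged 443 ± 32.6 in P3D8 monolayer and 6.64 ± 3.98 in P3E3 monolayer. The markers thus did not all meet the fibroblast label of the monolayers. In P3D8, 6 of the 8 tested were higher and 1 lower in cartilage, against 37.6% and 38.7% of all tested genes. In P3E3, 6 were higher and 2 lower, against 41.6% and 38.1%. *Lum* and *Thy1* passed the minimum of 10 through cartilage alone. Summed fibroblast marker counts were 1.00e+06 to 1.08e+06 in P3D8 cartilage against 87033 to 88162 in P3D8 monolayer. In P3E3 they were 520562 to 602683 against 47740 to 50917. Of 14 chondrocyte markers, 12 were in the table and 7 were high enough to test. Of the 7, 6 passed the minimum through cartilage alone, so their being higher there was fixed by the minimum. The seventh, *Sox9*, is described with its relatives. Summed counts of the 12, *Sox9* among them, were 7775 to 13888 in P3D8 cartilage against 724 to 887 in P3D8 monolayer. In P3E3 the sums were 9361 to 38245 in cartilage against 842 to 921 in monolayer.

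Of the 9 genes, 5 averaged 10 normalized counts or more across all 12 libraries and were tested with limma on log2(normalized count + 1) among 5294 genes: *S100b*, *Tubb3*, *Stmn2*, *Gap43* and *Nes*. *S100b* passed this minimum through its cartilage libraries alone and *Gap43* through its monolayer libraries alone, so that counts over the 5 describe them and no more. In P3D8, 2 of the 5 were higher and 3 lower in cartilage than in monolayer at an adjusted p under 0.05, where 37.6% of all tested genes were higher and 38.7% lower. In P3E3, 2 were higher, 2 lower and 1 was not called, against 41.6% higher and 38.1% lower among all genes. Between the cartilages, 1 was higher and 2 were lower in P3D8 than in P3E3, against 22.1% and 28.3%. Between the monolayers, 3 were higher and none lower in P3D8, against 26.6% and 23.2%. The difference between the clones in the cartilage change was called for 3 genes, all more negative in P3D8, against 18.6% more positive and 27.6% more negative among all genes. With such a background, the number of members called is not itself a result. The median log2 change of the 5 was -1.003 in P3D8 and 0.43 in P3E3, and that of all tested genes was -0.03 and 0.07.

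**Figure D1:**
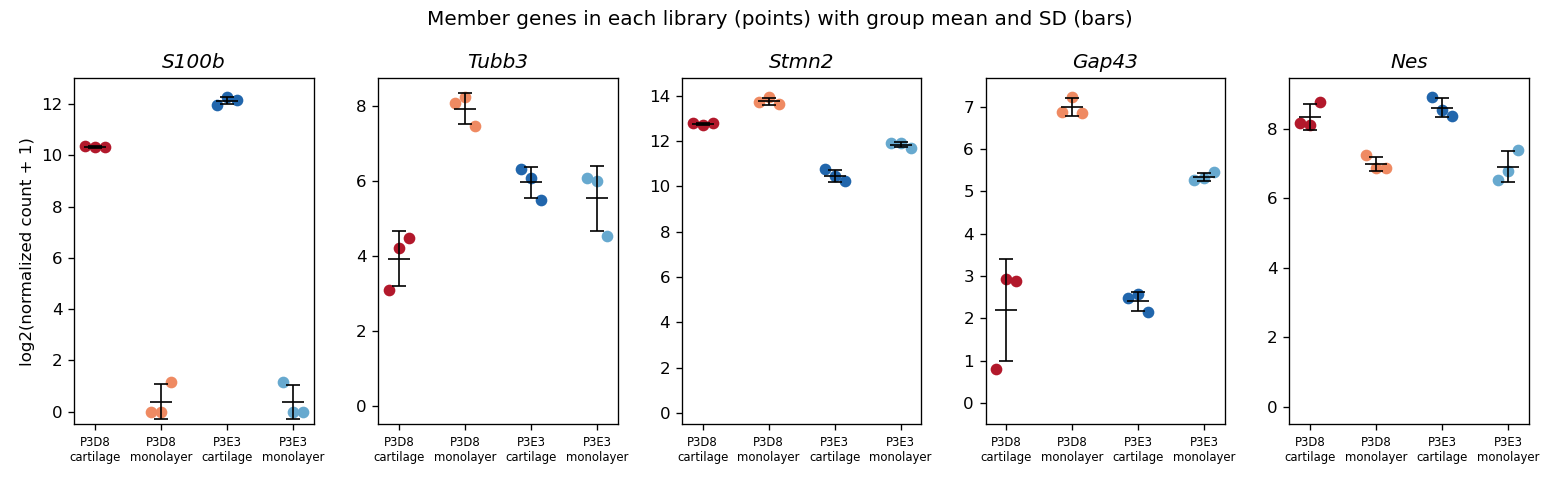
Normalized counts of the 5 tested genes on the log2(normalized count + 1) scale, with each of the 3 libraries of a group as a point and the group mean and SD of the log2 values as bars. *S100b* stands at or near 0 in monolayer and at 1267 or more normalized counts in every cartilage library, while *Tubb3* is highest in P3D8 monolayer and lowest in P3D8 cartilage.

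*S100b* (chr10:76253836-76261319) was abundant in cartilage and close to undetected in monolayer of both clones. P3D8 cartilage held 1302, 1279 and 1267 normalized counts, against 0, 0 and 1.24 in P3D8 monolayer. P3E3 cartilage held 4023, 4930 and 4624, against 1.21, 0 and 0 in P3E3 monolayer. All 6 cartilage libraries lay far above all 6 monolayer libraries, and the 3 of P3E3 above the 3 of P3D8. Only 2 reads were counted in each monolayer group, so the change is best given as a ratio with its counting interval. It was 3015 in P3D8 (95% exact interval 834 to 24903, 4900 against 2 reads) and 11246 in P3E3 (3113 to 92868, 16603 against 2 reads). The interval covers counting error only. On the log2(normalized count + 1) scale, *S100b* rose by 9.94 ± 0.33 in P3D8 (SE, limma adjusted p = 2.31e-12) and by 11.76 ± 0.33 in P3E3 (adjusted p = 2.35e-13). These were the 23rd largest of 2587 and the 14th largest of 2749 positive changes. Since *S100b* passed the minimum through cartilage alone, its direction was fixed, and these p-values and ranks add nothing to the counts above.

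Between the cartilages, *S100b* averaged 1283 ± 17.7 normalized counts in P3D8 and 4526 ± 461 in P3E3 (SD, n = 3 each). The log2 difference of P3D8 minus P3E3 was -1.81 ± 0.33 (SE, limma adjusted p = 0.000414), and -1.91 without the 4 libraries with a conflicting entry. No difference between the monolayers was detectable at this depth, with a log2 difference of 0.01 and a 95% interval of -0.69 to 0.71. The order of the 4 groups was thus P3E3 cartilage, P3D8 cartilage, and both monolayers at the detection limit. The difference between the clones in the cartilage change was -1.82 ± 0.46 (SE, limma adjusted p = 0.00528). It rests on monolayer values of a few reads and was not called by edgeR (adjusted p = 0.344), by DESeq2 (adjusted p = 0.307), or without the 4 libraries (-1.34, limma adjusted p = 0.0542).

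The S100 relatives of *S100b* moved in both directions. Of 8 S100 genes, *S100b* among them, 4 were high enough to test, each with 1 entry. *S100a1*, a calcium sensor of muscle that is also found in chondrocytes, rose by 3.56 in P3D8 and by 5.15 in P3E3 on the log2 scale. It averaged 2864 ± 176 normalized counts in P3D8 cartilage against 243 ± 15.3 in P3D8 monolayer, and 5492 ± 485 in P3E3 cartilage against 156 ± 36.7 in P3E3 monolayer (SD, n = 3 each). *S100a6*, known from proliferating cells, fell in both clones, with log2 changes of -1.43 in P3D8 and -0.45 in P3E3. *S100a11* fell by 0.52 in P3D8, and its log2 change in P3E3 was 0.11 (adjusted p = 0.331) with the deposited scaling and -0.50 (adjusted p = 0.000280) when libraries were scaled to their total reads. Between the cartilages, *S100b* and *S100a1* were called lower in P3D8 than in P3E3, *S100a1* with a log2 difference of -0.94, and *S100a6* and *S100a11* were not called.

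*Tubb3* (chr8:123411553-123422015) changed in P3D8 and showed no called change in P3E3. P3D8 cartilage held 7.46, 17.3 and 21.4 normalized counts, against 269, 300 and 173 in P3D8 monolayer. P3E3 cartilage held 78.1, 66.1 and 43.8, against 66.4, 62.3 and 21.9 in P3E3 monolayer. The P3D8 groups did not overlap, whereas those of P3E3 did, and replicate 3 was the lowest monolayer library of each clone, in both cases 1 of the 4 with a conflicting entry. In P3D8, *Tubb3* fell by 4.00 ± 0.42 on the log2 scale (SE, limma adjusted p = 7.29e-07), a 15.99-fold decrease. In P3E3 the log2 change was 0.43, with a 95% interval of -0.48 to 1.34 (adjusted p = 0.363). The difference of this change, P3D8 minus P3E3, was -4.43 ± 0.60 (SE, limma adjusted p = 4.27e-05), the 19th most negative of 2825 such differences. Without the 4 libraries with a conflicting entry, the change was -3.82 in P3D8 and -0.25 in P3E3, and the difference between them -3.56 (limma adjusted p = 0.000117).

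The clones took opposite orders in the 2 cultures. In cartilage *Tubb3* averaged 15.4 ± 7.15 normalized counts in P3D8 and 62.7 ± 17.4 in P3E3 (log2 difference -2.03, limma adjusted p = 0.00125). In monolayer it averaged 247 ± 66.0 in P3D8 and 50.2 ± 24.6 in P3E3 (SD, n = 3 each, log2 difference 2.39, limma adjusted p = 0.000322). P3D8 monolayer was thus the highest group and P3D8 cartilage the lowest, with the P3E3 groups between them and not separated from each other.

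The other beta tubulins, the building blocks of microtubules, were counted from 1 entry each. Of 8 in the list, *Tubb3* among them, 6 were high enough to test. In P3D8, 1 was higher in cartilage (*Tubb2a*), 4 were lower (*Tubb3*, *Tubb2b*, *Tubb6* and *Tubb5*) and *Tubb4b* was not called. Among all tested genes, 37.6% were higher and 38.7% lower in P3D8. With libraries scaled to total reads, *Tubb4b* was called lower too, at -0.44. In P3E3, *Tubb2a* and *Tubb4b* were higher, *Tubb6* was lower and the other 3 were not called, except that *Tubb5* was called lower, at -0.35, with scaling to total reads. Among all tested genes, 41.6% were higher and 38.1% lower in P3E3 with the deposited scaling. *Tubb2a* averaged 1295 ± 59.5 normalized counts in P3D8 cartilage against 451 ± 86.2 in P3D8 monolayer, and 2043 ± 271 in P3E3 cartilage against 148 ± 10.6 in P3E3 monolayer. Its log2 change was 1.54 in P3D8 and 3.78 in P3E3. *Tubb2b*, a tubulin of developing neurons, averaged 37.5 ± 8.49 in P3D8 cartilage against 154 ± 18.9 in P3D8 monolayer, a log2 change of -2.03 (limma adjusted p = 7.11e-07). In P3E3 it averaged 99.4 ± 26.4 in cartilage against 82.0 ± 9.12 in monolayer, a log2 change of 0.24 (adjusted p = 0.306). The change of all 6 was more negative in P3D8 than in P3E3, by between -4.43 (*Tubb3*) and -1.12 (*Tubb4b*), and this held with each of the 3 scalings (the deposited one, TMM factors, and total reads). With the deposited scaling, 27.6% of all tested genes were called more negative in P3D8. In monolayer all 6 were called higher in P3D8 than in P3E3, except that *Tubb4b* was not called with scaling to total reads. Among all tested genes, 26.6% were higher in P3D8 monolayer with the deposited scaling. Since the tubulin list was chosen with earlier results of these data known, the counts describe its 6 tested genes and no more. The summed beta tubulin counts were 8426 to 8691 in P3D8 cartilage against 11978 to 18140 in P3D8 monolayer, and 10448 to 11149 in P3E3 cartilage against 6062 to 7628 in P3E3 monolayer. Beta tubulins are similar in coding sequence, so reads from shared stretches may have been lost or assigned differently between them.

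**Figure D2:**
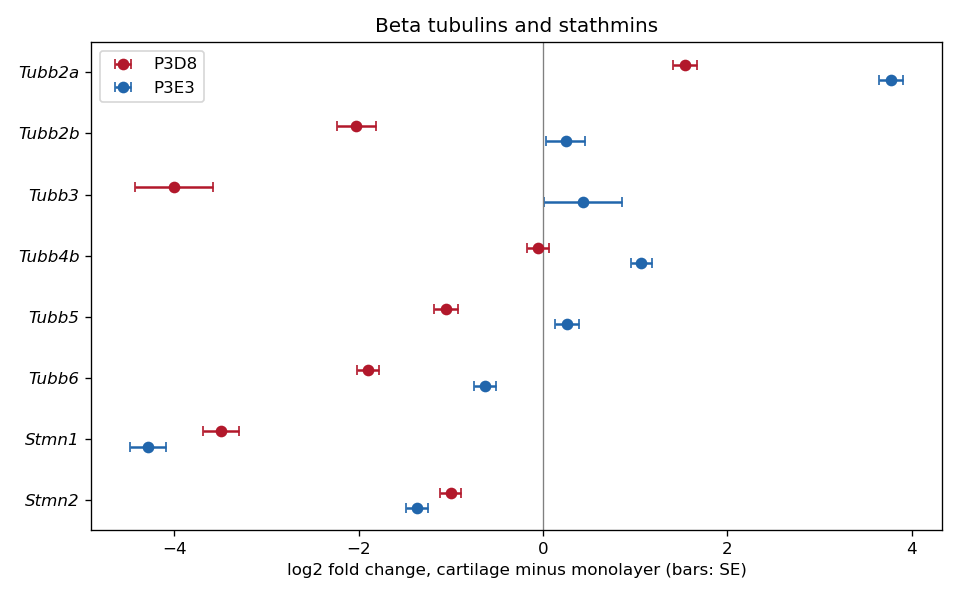
Log2 fold change of cartilage minus monolayer with its SE for the 6 tested beta tubulins and 2 tested stathmins, P3D8 in red and P3E3 in blue. For each tubulin the P3D8 point lies to the left of the P3E3 point, and both stathmins lie below 0 in both clones.

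*Stmn2* (chr3:8509527-8561604) was the highest of the 9 genes per kilobase of transcript in 3 of the 4 groups and was lower in cartilage of both clones. P3D8 cartilage held 7026, 6622 and 7020 normalized counts, against 13390, 15539 and 12635 in P3D8 monolayer. P3E3 cartilage held 1729, 1387 and 1202, against 3811, 3903 and 3335 in P3E3 monolayer. No library of any group overlapped with another group, in the order P3D8 monolayer, P3D8 cartilage, P3E3 monolayer and P3E3 cartilage. The log2 change of *Stmn2* was -1.003 ± 0.117 in P3D8 (SE, limma adjusted p = 2.01e-06) and -1.37 ± 0.12 in P3E3 (adjusted p = 5.89e-08). The clone difference was larger than the culture difference. P3D8 exceeded P3E3 by 2.27 ± 0.12 in cartilage (SE, limma adjusted p = 5.31e-09), a 4.84-fold level, and by 1.91 ± 0.12 in monolayer (adjusted p = 1.48e-08), a 3.76-fold level. Without the 4 libraries with a conflicting entry, the log2 changes were -1.08 in P3D8 and -1.58 in P3E3, and the clone differences 2.40 in cartilage and 1.90 in monolayer. The change was smaller in P3D8 by 0.37 (95% interval 0.01 to 0.72, limma adjusted p = 0.0843), a difference that was called with scaling to total reads (0.59, adjusted p = 0.0118) and without the 4 libraries (0.50, adjusted p = 0.0303). It was also called without P3D8 monolayer replicate 2 (0.45) and without P3E3 cartilage replicate 1 (0.51).

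The stathmin *Stmn1*, which is common in dividing cells, fell more steeply than *Stmn2*. It averaged 148 ± 31.2 normalized counts in P3D8 cartilage against 1685 ± 383 in P3D8 monolayer, and 128 ± 24.5 in P3E3 cartilage against 2507 ± 423 in P3E3 monolayer (SD, n = 3 each). Its log2 change was -3.49 in P3D8 (limma adjusted p = 6.25e-10) and -4.29 in P3E3 (adjusted p = 4.81e-11). The clones were not called different in *Stmn1* in cartilage (log2 difference 0.21, adjusted p = 0.391), and P3D8 was lower in monolayer (-0.58, adjusted p = 0.0215). *Stmn4*, with 6 transcript entries, was listed at 0 in all 12 libraries, which is not read as absence.

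*Gap43* (chr16:42248552-42340651) was nearly lost from cartilage of both clones. P3D8 cartilage held 0.75, 6.59 and 6.33 normalized counts, against 116, 149 and 114 in P3D8 monolayer. P3E3 cartilage held 4.60, 4.96 and 3.43, against 37.4, 38.5 and 42.6 in P3E3 monolayer. Every cartilage library lay below every monolayer library, and the cartilages of the 2 clones overlapped. The log2 change of *Gap43* was -4.78 ± 0.43 in P3D8 (SE, limma adjusted p = 1.27e-07), a 27.5-fold decrease, and -2.94 ± 0.43 in P3E3 (adjusted p = 1.96e-05), a 7.65-fold decrease. Since *Gap43* passed the minimum through monolayer alone, its direction was fixed, and these p-values add nothing to the counts above. P3D8 cartilage replicate 1, with 1 read, was the lowest library. Without it the change in P3D8 was -4.08, and without all 4 libraries with a conflicting entry it was -4.15 in P3D8 and -2.92 in P3E3.

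In monolayer *Gap43* averaged 127 ± 19.6 normalized counts in P3D8 and 39.5 ± 2.75 in P3E3 (SD, n = 3 each), a log2 difference of 1.64 (limma adjusted p = 0.00568). In cartilage it averaged 4.56 ± 3.30 in P3D8 and 4.33 ± 0.80 in P3E3, and the log2 difference of -0.20 was not called, with a 95% interval of -1.13 to 0.72. The clones differed in the cartilage change by -1.85 ± 0.61 (SE, limma adjusted p = 0.0235). It rests on cartilage values of a few reads per library and largely repeats the difference between the monolayers. The difference in the change was -1.15 without P3D8 cartilage replicate 1 (limma adjusted p = 0.0114). It was not called without P3D8 monolayer replicate 2 (-1.72, adjusted p = 0.0550).

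Other growth cone and axon proteins that could be tested were for the most part lower in cartilage. Of 18 genes in the list, *Gap43* among them, 8 were listed at 0 throughout and 7 were high enough to test. Of the 6 besides *Gap43*, 5 fell in P3D8, where 38.7% of all tested genes were lower, and 6 fell in P3E3, where 38.1% were. Their median log2 change was -2.88 in P3D8 and -2.49 in P3E3, beside -0.03 and 0.07 over all tested genes. These calls held under TMM scaling and scaling to total reads. The list was chosen with earlier results of these data known, so the counts and medians describe these 6 genes and no more. The exception in P3D8 was *Marcks*, a membrane-bound actin regulator. It averaged 4361 ± 444 normalized counts in P3D8 cartilage against 2493 ± 281 in P3D8 monolayer, and 2100 ± 239 in P3E3 cartilage against 8520 ± 577 in P3E3 monolayer. Its relative *Marcksl1* fell in both clones, with log2 changes of -3.02 in P3D8 and -3.97 in P3E3. *Uchl1*, a ubiquitin hydrolase abundant in neurons, fell to 6.04 ± 1.34 in P3D8 cartilage, against 71.3 ± 14.0 in P3D8 monolayer, a log2 change of -3.36. *Map1b*, a microtubule-associated protein of growing axons, fell in both, with log2 changes of -3.04 in P3D8 and -2.46 in P3E3. *Basp1*, a growth cone protein related in function to *Gap43*, averaged 15.5 ± 1.71 in P3D8 cartilage against 110.5 ± 20.7 in P3D8 monolayer, and 73.0 ± 26.8 in P3E3 cartilage against 708 ± 92.4 in P3E3 monolayer. *Dpysl3*, a regulator of growth cone collapse, had log2 changes of -1.14 in P3D8 and -2.52 in P3E3, and the call in P3D8 was lost without the 4 libraries with a conflicting entry (-1.02, limma adjusted p = 0.0779). *Basp1* had the opposite clone order to *Gap43* in monolayer, at a log2 difference of P3D8 minus P3E3 of -2.68 (limma adjusted p = 6.99e-07).

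*Nes* (chr3:87971093-87980451) was higher in cartilage of both clones. P3D8 cartilage held 283, 275 and 436 normalized counts, against 149, 117 and 116 in P3D8 monolayer. P3E3 cartilage held 481, 370 and 330, against 91.7, 108.5 and 167 in P3E3 monolayer. All 6 cartilage libraries lay above all 6 monolayer libraries, while the clones overlapped in both cultures. *Nes* rose by 1.35 ± 0.23 in P3D8 (SE, limma adjusted p = 7.97e-05), a 2.55-fold increase, and by 1.71 ± 0.23 in P3E3 (adjusted p = 7.05e-06), a 3.26-fold increase. Without the 4 libraries with a conflicting entry, it rose by 1.38 in P3D8 and by 1.80 in P3E3. The clones were not called different in cartilage (-0.26, 95% interval -0.75 to 0.22) or in monolayer (0.09, -0.39 to 0.58), nor in the change itself (-0.36, -1.04 to 0.33).

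Some intermediate filaments of other cell types were also higher in cartilage. Of 10 genes in the list, *Nes* among them, 5 were high enough to test. Of the 4 besides *Nes*, 3 rose in P3D8, where 37.6% of all tested genes were higher, and 4 rose in P3E3, where 41.6% were, with each of the 3 scalings. *Gfap*, *Synm* and *Des* averaged under 10 normalized counts in both monolayers and passed the minimum through cartilage alone, so that this count carries little beyond their values. *Des*, the muscle filament desmin, averaged 81.8 ± 9.69 normalized counts in P3D8 cartilage against 1.92 ± 0.67 in P3D8 monolayer, and 68.6 ± 7.78 in P3E3 cartilage against 0.41 ± 0.70 in P3E3 monolayer (SD, n = 3 each). *Synm*, a filament protein that assembles with desmin and vimentin, rose by 3.39 in P3D8 and by 2.81 in P3E3. *Vim*, the filament of mesenchymal cells, rose by 2.07 in P3E3, and its log2 change in P3D8 was 0.27 (limma adjusted p = 0.158). *Gfap*, the filament of astrocytes, is described with the glial genes. *Myod1* and *Myog*, the muscle regulators, were listed at 0 in all libraries, each with 1 entry.

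**Figure D3:**
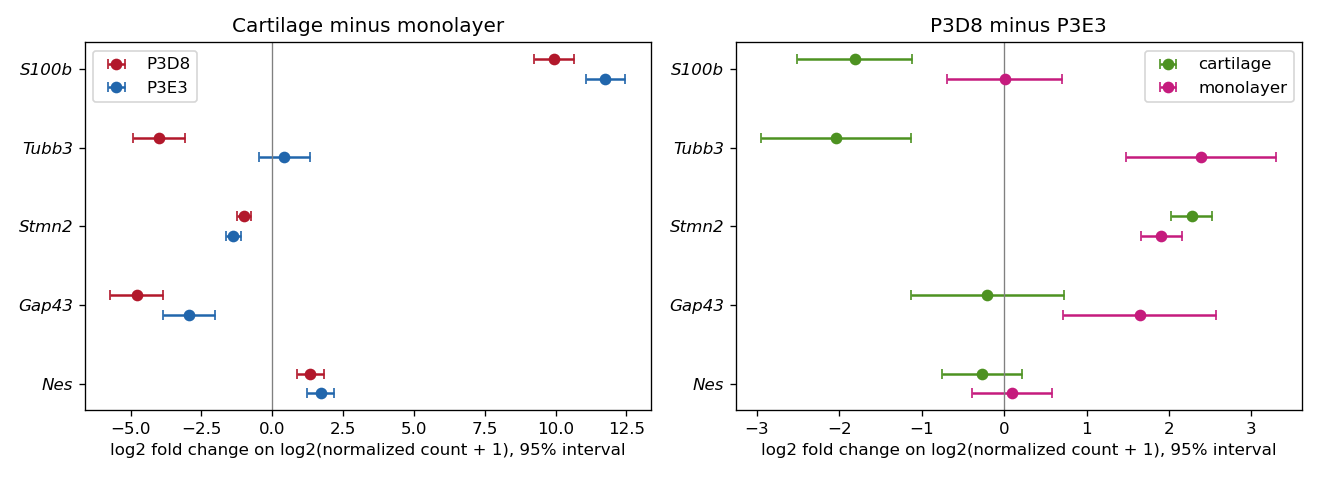
Log2 fold change with its 95% interval for the 5 tested genes, as cartilage minus monolayer in P3D8 and P3E3 (left) and as P3D8 minus P3E3 in cartilage and monolayer (right). The interval of *Tubb3* crosses 0 in P3E3 alone on the left. On the right, *Tubb3* is the gene called in both cultures with opposite signs, at -2.03 in cartilage and 2.39 in monolayer.

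The neurofilament genes, *Stmn3* and *Sox10* were counted at the detection limit. *Nefl* (chr14:68083863-68089095) and *Nefm* (chr14:68119545-68125004) had 1 read each over all 12 libraries, both in P3E3 monolayer replicate 1. *Stmn3* (chr2:181306459-181314500) had 1 read, in P3E3 cartilage replicate 2, and *Sox10* (chr15:79154913-79164490) had 1 read, in P3D8 cartilage replicate 2. Each was at 0 in the other 11 libraries, where a count of 0 allows up to 3 reads. With 1 read in 1 library, no test between cultures or clones can be informative for these 4 genes, and none is given. Since these genes have 1 entry each, no second transcript entry of the same gene competed for their reads. *Nefm* overlaps another annotated gene, *A230070E04Rik*, so reads from the shared stretch may have been lost.

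Genes that define neurons were also scarce in the table. Of 22 neuron identity and synapse genes, 16 were listed at 0 in all libraries and none reached the minimum for a test. Their summed counts were 8.20 to 12.7 in P3D8 cartilage against 0.62 to 7.07 in P3D8 monolayer, and 13.8 to 16.5 in P3E3 cartilage against 4.22 to 7.31 in P3E3 monolayer. *Syp*, a synaptic vesicle protein, made up most of the sum in cartilage. It averaged 9.18 ± 1.05 in P3D8 cartilage against 1.94 ± 1.71 in P3D8 monolayer, and 13.6 ± 2.11 in P3E3 cartilage against 4.22 ± 1.84 in P3E3 monolayer. Only 7 of the 22 have 1 entry, and all 7 were under a mean of 10. For the other 15, low values can come from the counting. Fewer cells of a type and less RNA per cell cannot be told apart in such bulk libraries.

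Several glial genes other than *Sox10* were higher in cartilage. Of 22 Schwann cell and glia genes, 6 were high enough to test. Of these, *Gfap*, *Fabp7*, *Gjc3* and *Bcan* averaged under 10 normalized counts in both monolayers and passed the minimum through cartilage alone, which fixed their direction. In P3D8, 5 of the 6 rose and 1 fell, where 37.6% of all tested genes were higher and 38.7% lower. In P3E3, 5 rose and 1 was not called, against 41.6% higher. The calls were the same with each of the 3 scalings, and the counts describe these 6 genes and no more. *Gfap* averaged 200 ± 17.4 normalized counts in P3D8 cartilage against 0.62 ± 1.08 in P3D8 monolayer, a ratio of 313 (95% exact interval 107 to 1521, 763 against 3 reads). In P3E3 it averaged 677 ± 99.8 in cartilage and 0 in all 3 monolayer libraries, an at least 374-fold higher level against a floor of 3 reads per library. *Slc1a3*, the astrocyte glutamate transporter, averaged 699 ± 82.2 in P3D8 cartilage against 36.7 ± 6.95 in P3D8 monolayer, and 230 ± 24.1 in P3E3 cartilage against 3.60 ± 1.17 in P3E3 monolayer. *Bcan*, a proteoglycan of brain matrix, was at 0 in all monolayer libraries and at least 13.3-fold higher in P3D8 cartilage and at least 50.6-fold higher in P3E3 cartilage against the same floor. *Gjc3*, a glial connexin, was also at 0 in monolayer and at least 11.9-fold higher in P3D8 cartilage and at least 33.3-fold higher in P3E3 cartilage. *Fabp7*, a fatty acid binding protein of radial glia, was at least 6.15-fold higher in P3D8 cartilage and at least 52.4-fold higher in P3E3 cartilage.

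Other glial markers did not share this pattern. *Mbp*, the myelin basic protein, averaged 22.9 ± 4.39 in P3D8 cartilage against 34.5 ± 3.11 in P3D8 monolayer. Its fall of 0.59 in P3D8 was not called by edgeR (adjusted p = 0.0538) or without the 4 libraries with a conflicting entry (limma adjusted p = 0.189). *Erbb3*, the neuregulin receptor of Schwann cells, averaged 3.94 ± 0.20 in P3D8 cartilage against 14.3 ± 4.14 in P3D8 monolayer, and 4.64 ± 1.35 in P3E3 cartilage against 4.01 ± 0.94 in P3E3 monolayer. The summed counts of the whole list were 923 to 1032 in P3D8 cartilage against 79.7 to 91.9 in P3D8 monolayer, and 1111 to 1262 in P3E3 cartilage against 18.7 to 25.5 in P3E3 monolayer. *Slc1a3* and *Gfap* made up most of the sum in both cartilages. The part of the listed glial genes in the *S100b* values was not tested. Between the cartilages, *Gfap*, *Bcan*, *Fabp7* and *Gjc3* were lower in P3D8 than in P3E3, as *S100b* was, with log2 differences of -1.75, -1.82, -2.89 and -1.36. *Slc1a3* and *Mbp* were higher in P3D8, by 1.59 and 1.13. The cartilage change was more negative in P3D8 for 5 of the 6 by limma and for 2 of the 6 by edgeR. By limma, 27.6% of all tested genes were called more negative. *Fabp7*, *Gjc3* and *Bcan* were at 0 in all monolayer libraries, so for them this repeats the difference between the cartilages.

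**Figure D4:**
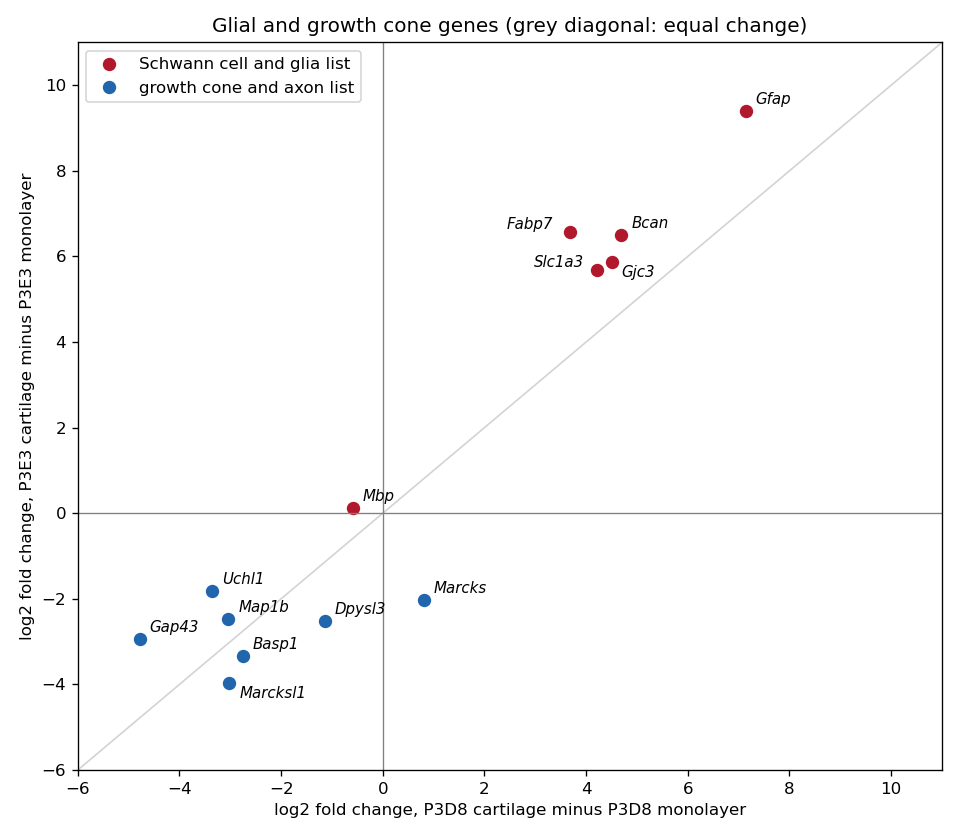
Log2 fold change of cartilage minus monolayer in P3D8 (horizontal) and P3E3 (vertical) for the 6 tested glial genes in red and the 7 tested growth cone and axon genes in blue, with the grey diagonal marking equal change. The 5 glial genes at the upper right rose in both clones, and *Marcks* is the blue point that lies right of 0.

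The SoxE relatives of *Sox10* were present. *Sox9*, the main transcription factor of chondrocytes, averaged 3869 ± 81.0 normalized counts in P3D8 cartilage against 781 ± 90.5 in P3D8 monolayer, and 4962 ± 212 in P3E3 cartilage against 879 ± 39.7 in P3E3 monolayer (SD, n = 3 each). It rose by 2.31 in P3D8 (limma adjusted p = 3.86e-12) and by 2.50 in P3E3 (adjusted p = 1.09e-12). *Sox8* was at 0 in all 3 P3D8 monolayer libraries and averaged 214 ± 38.3 in P3D8 cartilage, at least 112-fold higher against a floor of 3 reads per library. In P3E3 it averaged 2039 ± 109 in cartilage against 0.40 ± 0.70 in monolayer, a ratio of 5087 (95% exact interval 1408 to 42017, 7511 against 2 reads). Like *S100b*, *Sox8* was lower in P3D8 cartilage than in P3E3 cartilage, with a log2 difference of -3.26 (limma adjusted p = 5.15e-07). *Sox8*, *Sox9* and *Sox10* each have 1 entry. *Sox8* passed the minimum through cartilage alone, which fixed the direction of its change.

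Levels were compared between genes only per kilobase of transcript. In P3D8 cartilage *Stmn2* led with 3324 ± 112 normalized counts per kilobase, followed by *S100b* with 864 ± 11.9, *Nes* with 54.1 ± 14.8, *Tubb3* with 8.23 ± 3.83 and *Gap43* with 3.21 ± 2.33. In P3D8 monolayer the order was *Stmn2* (6683 ± 727), *Tubb3* (132 ± 35.3), *Gap43* (89.1 ± 13.8), *Nes* (20.8 ± 3.10) and *S100b* (0.28 ± 0.48). In P3E3 cartilage *S100b* led with 3050 ± 311 per kilobase, ahead of *Stmn2* with 694 ± 129, *Nes* with 64.3 ± 12.7, *Tubb3* with 33.6 ± 9.34 and *Gap43* with 3.05 ± 0.56. In P3E3 monolayer *Stmn2* stood at 1777 ± 147, and *Gap43* (27.8 ± 1.93), *Tubb3* (26.9 ± 13.1) and *Nes* (20.0 ± 6.50) lay within their spread of each other. *Tubb3* and *Gap43* in P3D8 cartilage, and *Tubb3* and *Gap43* in P3D8 monolayer, also differed by less than the sum of their SDs. *S100b* thus led in P3E3 cartilage and *Stmn2* in the other 3 groups.

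The genes whose values ran most like each member over the 12 libraries were taken by Pearson's r on the log2 scale among genes with a mean of at least 50. Predicted genes and genes named only by a clone or sequence identifier were left out of the search. The libraries form 4 groups, so r describes the group pattern. For *S100b* the most alike were *Calr*, an endoplasmic reticulum chaperone (r = 0.9975), *Fibin* (0.997) and *Ppp1r1b* (0.997). For *Stmn2* they were *Ccl2*, a monocyte chemokine (0.994), *Sdha*, a subunit of succinate dehydrogenase (0.974), and *Ice1* (0.968). *Ccl2* averaged 236 normalized counts in P3D8 cartilage against 1161 in P3D8 monolayer, and 17.4 in P3E3 cartilage against 106 in P3E3 monolayer. For *Gap43* they were *Ercc1*, a DNA repair endonuclease subunit (0.975), *Neurl1b* (0.973) and *Fam181b* (0.972). For *Tubb3* they were *Rtcb*, an RNA ligase (0.972), *Slc25a33* (0.960) and *Adi1* (0.956), and for *Nes* they were *Zbtb4* (0.972), *Rab33b* (0.959) and *Hoxa5* (0.955).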

How the data were processed

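Polyadenylated RNA of 12 libraries was sequenced as 100-base paired-end reads. The authors aligned reads to mm10 with HISAT2, counted them per RefSeq transcript with htseq-count and normalized with DESeq2 (versions, annotation and strand setting not given in the sources used here), together with articular and growth plate datasets not used here. The deposited signal values are counts divided by the authors by 1 size factor per library. A second deposited table holds the authors' own log2 fold changes and p-values between the cartilages, and was not used.

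The 106518 transcript values were summed to 35976 gene symbols. Genes with a mean of at least 10 normalized counts (5294) were fitted by limma 3.58.1 in R 4.3.3 on log2(value + 1), with a trend in the prior variance, over 4 groups without covariates. Benjamini-Hochberg adjustment ran over all tested genes, and a call is an adjusted p under 0.05, two-sided. Changes of low genes are understated on this scale. All values (100%) were whole reads within a tolerance of 0.01, and these reads were also tested with edgeR 4.0.16 and DESeq2 1.42.0. Other alternatives were another pseudocount, other filters, the most counted transcript, TMM, scaling to total reads, other library groupings, a replicate term and leaving out each library. The fit was tested on simulated data. The permutation test planned for members below the minimum was dropped, since each has 1 read in 1 library and p could only be 1. The members and gene lists were chosen with earlier results of these data known. Named genes are the members, tested paralogs of the stathmin, tubulin, filament and SoxE lists, up to 4 called genes of each other list with the largest change, defining markers, and the 3 genes most like each member. *Marcks*, *Mbp*, *S100a11*, *Syp* and *Lyz2* were singled out after their values had been seen. Lengths are of the longest matching GENCODE transcript, and positions and promoters are from RefSeq on GRCm38.p6. A few list genes are not reported here.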

Additional observations from a re-analysis of the deposited data

Results flagged for a closer look

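The cartilage change differed between the clones for 3 of the 5 tested genes by the interaction term of the limma fit. Among all tested genes, 18.6% were called more positive and 27.6% more negative in P3D8, so the count is not itself a result. For *Tubb3* the difference of P3D8 minus P3E3 was -4.43 on the log2 scale (adjusted p = 4.27e-05), with a fall in P3D8 and no called change in P3E3. For *Gap43* it was -1.85 (adjusted p = 0.0235), with a fall in both clones to cartilage libraries of a few reads each. For *S100b* it was -1.82 (adjusted p = 0.00528), with a rise in both clones from monolayer groups of 2 reads each. The *S100b* difference was not called by edgeR, by DESeq2 or without the 4 libraries with a conflicting entry.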

How the results depend on the processing

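Of 574 values of single genes under alternatives, 554 kept their direction and side of the threshold, 13 lost a call, 4 gained one and 3 reversed. Counts of called genes stayed within 1.5 times in 112 of 116 cases. The exceptions were 6315 genes in P3D8 (cartilage against monolayer) with no filter on low values, where more genes were tested, against 4041, and 3 counts with libraries grouped by the cell line entry. That grouping gave 0 limma calls between the cartilages, between the monolayers and for the difference of the changes, with 31, 89 and 49 genes at an unadjusted p under 0.05. It mixes the titles within each group. Under it, *Tubb3* had -1.95 in P3D8, 0.12 between cartilages, 0.44 between monolayers and -0.33 for the difference of the changes. *Gap43* had 0.71 between monolayers and 0.21 for the difference, and *S100b* -0.73 between cartilages and 0.040 for the difference. *Stmn2* had -1.04 in P3D8, -1.33 in P3E3, 0.93 between cartilages and 0.63 between monolayers. The *S100b* difference of the changes was -1.82 with edgeR, -1.86 with DESeq2 and -1.34 without the 4 libraries with a conflicting entry. The *Stmn2* difference was 0.59 with scaling to total reads, chosen after seeing the data, and 0.50 without the 4 libraries. Leaving out 1 library at a time gave 0.24 to 0.51 for it and -2.21 to -1.15 for the *Gap43* difference. The causes were not tested.

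Scaling to total reads moved the median log2 change of all genes to -0.41 in P3D8 and -0.53 in P3E3. It moved the share of calls that were higher to 36.1%, against 49.3%, in P3D8 and to 35.2%, against 52.2%, in P3E3. Between cartilages the share was 54.5%, against 43.8%, between monolayers 42.3%, against 53.4%, and for the difference of the changes 57.4%, against 40.2%. *Gap43* was below the stricter minimum of 50 and had no value there. With a replicate block, 3992 genes were called in P3D8 and 4159 in P3E3, and no member's call changed. Same-numbered libraries correlated at -0.30 to 0.11 after group means were removed, so no pairing by replicate number was detected. With 3 libraries per group, a weak pairing could be missed. Depth limits *S100b* in monolayer and the 4 genes with 1 read.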

Other observations

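Neurotrophic ligands and their receptors, which guide and sustain axons, were partly counted. Of 14 in the list, 7 were listed at 0 throughout and 4 were high enough to test, and each of the 4 has several transcript entries. *Gfra1* and *Gfra2* passed the minimum through monolayer alone, which fixed their direction. *Gfra1* and *Gfra2*, receptors of the GDNF family, fell in both clones, with log2 changes of -3.28 and -4.05 in P3D8 and -3.78 and -2.80 in P3E3 (limma adjusted p between 1.75e-07 and 3.59e-05). *Bdnf*, a neurotrophin, averaged 3.16 ± 0.89 normalized counts in P3D8 cartilage against 27.7 ± 4.49 in P3D8 monolayer, and 10.5 ± 3.43 in P3E3 cartilage against 30.3 ± 5.92 in P3E3 monolayer (SD, n = 3 each). *Ptn*, a heparin-binding growth factor known from cartilage and nerve, averaged 130 ± 21.8 in P3D8 cartilage against 97.0 ± 34.9 in P3D8 monolayer, which was not called. In P3E3 it averaged 25.5 ± 17.5 in cartilage against 0.20 ± 0.35 in monolayer, a rise of 4.29 (limma adjusted p = 1.88e-07).

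*Rest*, a repressor of neuronal genes in other cell types, averaged 64.1 ± 17.8 in P3D8 cartilage against 69.5 ± 14.6 in P3D8 monolayer, which was not called (limma adjusted p = 0.667). In P3E3 it fell by 1.66 (adjusted p = 6.33e-05), to 27.2 ± 8.47 in cartilage against 86.6 ± 18.1 in monolayer. Its corepressor *Rcor1* fell in both clones, with log2 changes of -0.65 in P3D8 and -1.48 in P3E3. *Hdac1* rose by 0.54 in P3D8 and by 1.26 in P3E3, and *Hdac2* fell by 1.56 in P3E3 and was not called in P3D8 with the deposited scaling. *Lyz2*, a lysozyme of macrophages, averaged 24.8 ± 5.69 in P3D8 cartilage and 81.7 ± 19.4 in P3E3 cartilage and was at 0 in all monolayer libraries, while 3 of the other 4 immune markers were at 0 throughout. Those 3 have several transcript entries each, so their 0 is not read as absence. *Lyz2* passed the minimum through cartilage alone, which fixed its direction.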
